A study of Mus musculus with 16 samples.

Results

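Of 16593 genes named on the array, 10 belonging to the integrated stress response and the endoplasmic reticulum (ER) stress response were followed in Neuro 2a cells with and without hydrogen peroxide. They were taken by name from the array's gene annotation: Atf4, Ddit3, Asns, Phgdh, Trib3 and Cebpb for the ATF4 arm, and Hspa5, Hyou1, Calr and Xbp1 for the ER chaperone arm. Together they have 13 probes of the 25697 on the array, 3 for Asns, 2 for Ddit3 and 1 for each of the other genes. All 13 probes were detected on all 16 arrays, so none was lost to the filter on dim probes.

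Neuro 2a is an established mouse neuroblastoma line, given in the labels as strain C57BL/6J. In every group the isolated RNA was labelled with ARP, an aldehyde-reactive probe that carries biotin and attaches to abasic sites, positions at which a base has been lost. Basal-total was RNA of untreated cells and Ox-total RNA of peroxide-treated cells, both labelled but not captured. Basal-ARP and Ox-ARP were the same 2 conditions after capture on streptavidin beads. The labels state neither dose nor duration of the peroxide, and no group held RNA captured without the label. Each group had 4 arrays. The labels number them as replicates without saying whether they came from separate cultures, so the p-values measure the spread between these arrays, which may be technical.

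The integrated stress response is a shared reply to several kinds of stress. Kinases that sense unfolded protein, lack of amino acids, heme deficiency or double-stranded RNA phosphorylate the initiation factor eIF2, which slows general translation while favouring that of ATF4. ATF4 is a transcription factor that raises genes of amino acid synthesis and uptake and, under lasting stress, CHOP, the product of Ddit3. ER stress also acts through IRE1, which splices the Xbp1 transcript, and ATF6, and both of these raise the chaperones of the ER. Neither the phosphorylation of eIF2 nor the splicing of Xbp1 is read by the probe values described here.

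The motifs through which these arms are known to act can be seen in the promoters of 3 of the genes. Those of Asns, Hspa5 and Calr are shown because they held a match. A promoter was found in RefSeq (GRCm38.p6) for 9 of the 10 genes, all but Hyou1, and the 250 bases before each start were searched on both strands. The searched motifs were the core of the CARE, TGATGNAA, which ATF4 binds with C/EBP proteins, and the ER stress elements ERSE, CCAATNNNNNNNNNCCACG, and ERSE-II, which is ATTGG and CCACG parted by 1 base. The core of the UPRE, TGACGTG, was also searched. Of 32851 mouse promoters, 3.45% held the CARE core, 0.113% ERSE, 0.0304% ERSE-II and 1.65% the UPRE core within this window. Positions count back from the base before the annotated start, which is -1. Asns had the CARE core from -23 (chr6:7693210-7693262, minus strand), Hspa5 the UPRE core from -157 and ERSE from -65 (chr2:34771903-34772073, plus strand), and Calr ERSE on the opposite strand from -162 (chr8:84847045-84847123, minus strand). The stretches run 5′ to 3′ on the strand of the gene, with the matches in capitals.
Asns: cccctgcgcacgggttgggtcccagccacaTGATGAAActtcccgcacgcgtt
Hspa5: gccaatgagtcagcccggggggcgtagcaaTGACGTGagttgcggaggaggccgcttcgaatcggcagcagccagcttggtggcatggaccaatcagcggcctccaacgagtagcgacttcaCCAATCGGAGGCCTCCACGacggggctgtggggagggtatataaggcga
Calr: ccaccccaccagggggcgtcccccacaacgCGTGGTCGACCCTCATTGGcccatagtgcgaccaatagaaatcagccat
The other 6 promoters held no match in these 250 bases, which says only that these letters are not there. A match is a description of the sequence and was not tested for binding.

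Array mean signals ran from 328 to 533, and 10351 to 11068 probes were detected per array (40.3% to 43.1%). The arrays correlated at 0.948 to 0.995 with each other. They lay on 2 chips, with replicates 1 and 2 of every group on one and replicates 3 and 4 on the other, so each comparison can also be read within a chip. No array position was shared between groups, so differences between groups cannot be told apart from differences between positions. Of 11 neuroblastoma and sympathetic neuron markers with a probe, 10 passed the detection filter, while Mycn was not detected on any array. None of 5 macrophage markers was detected on any array. In the fibroblast and glial lists 1 gene each passed the filter, Dcn of 6 and Mbp of 4, and the fibroblast marker Pdgfra was detected on 8 arrays without passing. The summed intensity of the neuronal markers that passed was 11454 to 11995 in Basal-total and 11368 to 12113 in Ox-total. After capture it was 12260 to 13320 in Basal-ARP and 11827 to 12621 in Ox-ARP. The intensity of the glial gene Mbp ran from 135 to 155 in Basal-total, 121 to 143 in Ox-total, 160 to 187 in Basal-ARP and 129 to 164 in Ox-ARP, and that of Dcn lay between 39.6 and 69.4 over all arrays. The part of these shifts in the results below was not tested. As in any bulk RNA, fewer cells expressing a gene and less of its RNA per cell cannot be told apart.

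Values below are background-corrected, quantile-normalized log2 intensities, and differences between groups are log2 differences ± the standard error of the limma fit, with 4 arrays in each group. Probes passed the threshold where p, adjusted by Benjamini and Hochberg's method over the 10794 probes left by the detection filter, lay under 0.05. Because every array was given the same distribution of values, a difference between captured and total RNA is a shift in relative representation, not an amount of RNA. Levels of different probes are not comparable, so each probe is compared with itself between groups. For the genes with several probes, the difference between 2 probes within an array is also followed from group to group. Comparisons that share a group of arrays are not independent of each other: Basal-ARP enters the capture difference without peroxide and, with the opposite sign, the peroxide difference among captured RNA.

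In total RNA, none of the 13 probes changed with peroxide, where 0.25% of all probes (27) did in limma's test, 0.0556% upward and 0.195% downward. At an unadjusted p under 0.05 there was 1 of the 13, the Ddit3 probe ILMN_2927373, and 1089 of all probes. The median of the 13 differences was -0.091, where that of all probes was 0.013. Capture moved more of them. In untreated cells 6 of the 13 probes were called between Basal-ARP and Basal-total, 2 higher and 4 lower in captured RNA, where 31.8% of all probes were called (16.7% higher and 15.2% lower). In peroxide-treated cells 6 were called between Ox-ARP and Ox-total, again 2 higher and 4 lower, where 27% of all probes were called (13.6% higher and 13.4% lower). Between the captured fractions, Ox-ARP against Basal-ARP, 7 were called, 4 higher and 3 lower, where 29.2% of all probes were called (13.8% higher and 15.4% lower). With 13 probes these shares lie above the background by only a few probes, and no test was made of the list. The medians over the 13 probes were 0.14, 0.069 and 0.012 in these 3 comparisons, against 0.025, 0.028 and 0.019 over all probes. The ranges of the 2 groups compared did not overlap for 5, 6 and 7 of the 13 probes. Over all probes they did not overlap for 27.7%, 28.5% and 27.3%. In total RNA this held for 0 of the 13 and 6.24% of all probes.

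By arm, the calls fell as follows. Of the 9 probes of the ATF4 arm, 2 were higher and 3 lower on capture without peroxide, 0 higher and 3 lower on capture with it, and 2 higher and 3 lower in Ox-ARP than in Basal-ARP. Of the 4 ER probes, 0 were higher and 1 lower on capture without peroxide, 2 higher and 1 lower on capture with it, and 2 higher and 0 lower in Ox-ARP than in Basal-ARP. These calls are 55.6%, 33.3% and 55.6% of the 9 probes, and 25%, 75% and 50% of the 4. Over all probes the shares were 31.8%, 27% and 29.2%. With so few probes in each arm, a difference between the arms was not tested. The interaction is the capture difference with peroxide minus the one without. It was called for 3 of the 13 probes, 1 higher and 2 lower, where 2.52% of all probes were called (0.778% higher and 1.74% lower). All 3 were of the ATF4 arm, whose median interaction was -0.13, against 0.31 in the ER arm and 0.0026 over all probes. Both arms held probes of either sign. The ATF4 arm ran from -0.80 (Phgdh) to 0.48 (Cebpb) and the ER arm from -0.10 (Calr) to 0.60 (Hyou1). In the ER arm Hyou1 missed the threshold narrowly (adjusted p = 0.0526) and passed with the chip as a block (0.0185). The plot of differences with their intervals sets the 5 comparisons side by side.

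**Figure D1:**
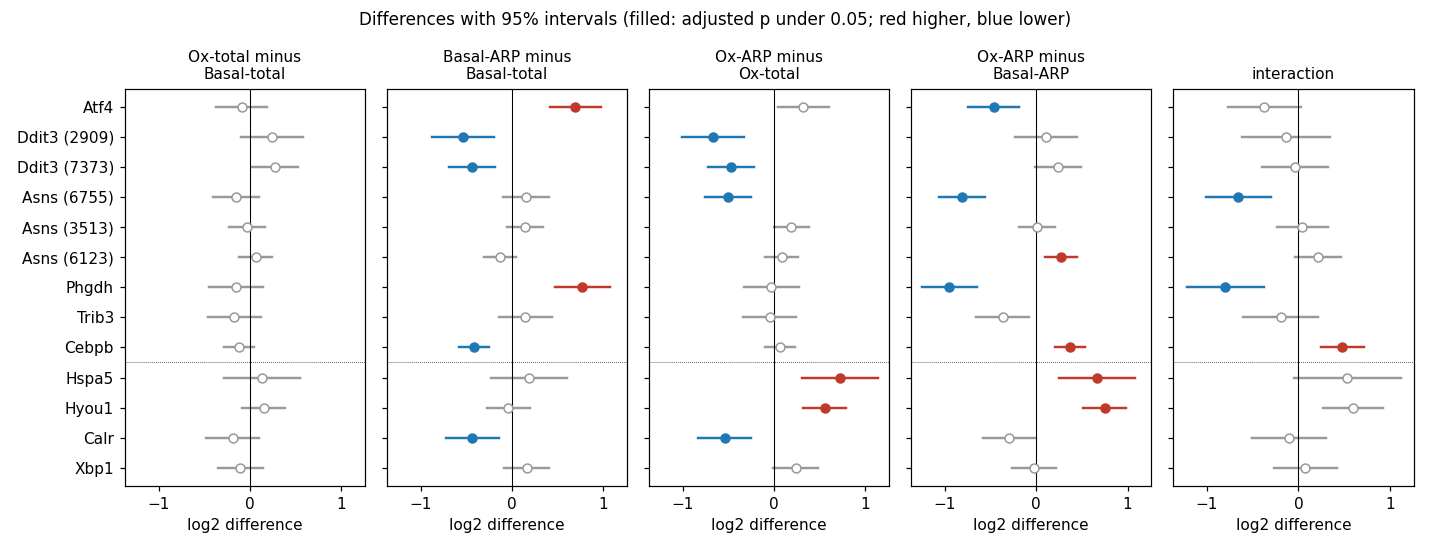
Log2 differences of the 13 probes (rows, the ATF4 arm above the dotted line and the ER chaperone arm under it; probes of one gene are marked by the last 4 digits of their ID) in the 5 comparisons (panels), with 95% intervals of the limma fit; filled points passed the adjusted threshold, red higher and blue lower. No point is filled in the total RNA panel, while Atf4 and Phgdh are red on capture without peroxide and Hspa5 and Hyou1 are red in both panels that compare Ox-ARP with another group.

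Atf4, the transcription factor at the head of the arm, was most represented in captured RNA of untreated cells. In Basal-total its arrays read 9.54, 9.29, 9.81 and 9.93, and in Ox-total 9.38, 9.40, 9.64 and 9.78. The captured arrays read 10.44, 10.36, 10.15 and 10.39 in Basal-ARP and 9.80, 9.84, 9.76 and 10.08 in Ox-ARP. Every Basal-ARP array lay above every array of the other 3 groups, and Ox-ARP lay between it and total RNA, overlapping both total groups. Capture without peroxide raised Atf4 by 0.69 ± 0.13 (1.62-fold, adjusted p = 0.000894), by 0.99 within chip 1 and 0.40 within chip 2. With peroxide the capture difference was 0.32 ± 0.13 and missed the threshold (adjusted p = 0.0863), although all 4 Ox-ARP arrays lay above the Ox-total array of the same number. It passed under median scaling (adjusted p = 0.0206), with the authors' processed table (0.0381) and with the chip as a block (0.042). It also passed with the replicate number as a block (adjusted p = 0.0319), by which captured and total arrays were assumed to be paired. Atf4 fell by 0.46 ± 0.13 from Basal-ARP to Ox-ARP (adjusted p = 0.0152), and the interaction of -0.37 ± 0.19 was not called (adjusted p = 0.295). Its call on capture without peroxide was lost without normalization between arrays (adjusted p = 0.171) and on chip 2 alone (0.124). The fall between captured fractions lost its call there too, at -0.25 (adjusted p = 0.564) and -0.35 (0.17). In order of level the groups were Basal-ARP, Ox-ARP, Basal-total and Ox-total, and neighbours below the first overlapped.

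**Figure D2:**
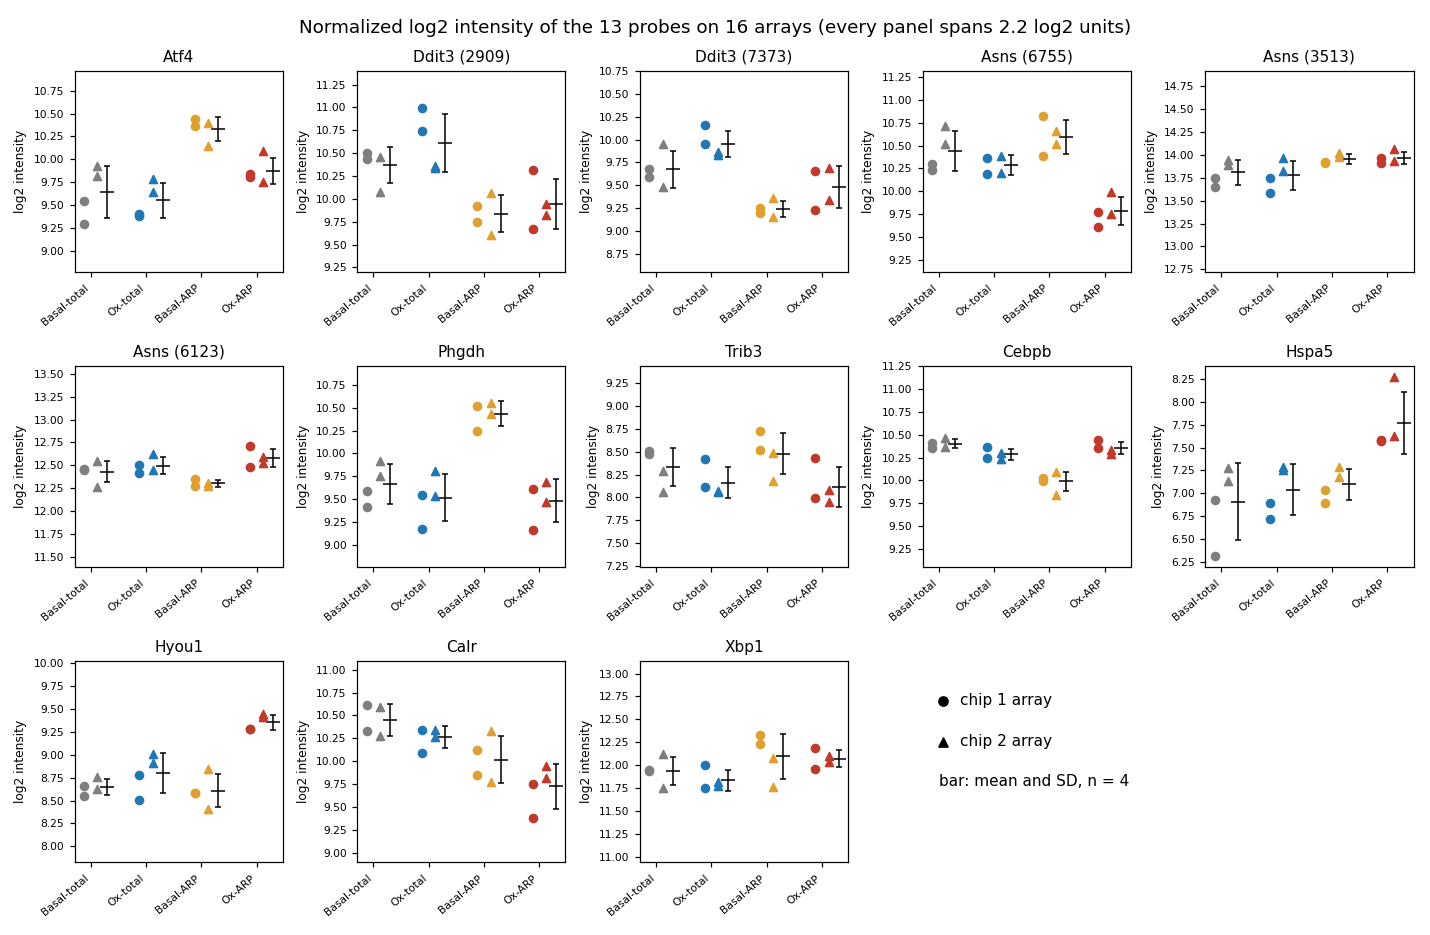
Normalized log2 intensity of each of the 13 probes (panels) on the 16 arrays by group, with circles for chip 1, triangles for chip 2 and a bar for the mean and SD of 4 arrays; every panel spans the same number of log2 units. Atf4 and Phgdh stand apart in Basal-ARP, and Hyou1 and Hspa5 in Ox-ARP, where the Hyou1 arrays lie between 9.28 and 9.44.

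Ddit3 encodes CHOP, the transcription factor tied to cell death under lasting ER stress, and both of its probes were less represented in captured RNA. For ILMN_2652909 the arrays read 10.50, 10.44, 10.08 and 10.46 in Basal-total and 10.99, 10.74, 10.36 and 10.34 in Ox-total. Captured RNA gave 9.93, 9.74, 9.61 and 10.07 in Basal-ARP and 10.32, 9.67, 9.94 and 9.83 in Ox-ARP. Each captured group lay wholly under the total group of its own condition. ILMN_2927373 had means of 9.67 ± 0.20 (SD, n = 4) in Basal-total and 9.95 ± 0.14 in Ox-total, against 9.24 ± 0.090 in Basal-ARP and 9.48 ± 0.23 in Ox-ARP, the same order of groups. Capture without peroxide lowered the first probe by 0.53 ± 0.16 (adjusted p = 0.0184) and the second by 0.44 ± 0.12 (adjusted p = 0.0113). With peroxide the capture differences were -0.67 ± 0.16 (adjusted p = 0.00555) and -0.47 ± 0.12 (adjusted p = 0.00808). Within chips 1 and 2 all of these kept their sign, from -0.87 to -0.33. The call for ILMN_2652909 on capture without peroxide was lost without Basal-total replicate 1 (adjusted p = 0.0528), without Basal-ARP replicate 3 (0.055) and under median scaling (0.0581).

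The peroxide difference of Ddit3 in total RNA was 0.24 ± 0.16 for ILMN_2652909 and 0.28 ± 0.12 for ILMN_2927373, with adjusted p of 0.661 and 0.451. For both probes 3 of 4 Ox-total arrays lay above the Basal-total array of the same number, and the ranges of the groups overlapped. Chip 1 gave 0.40 and 0.42 and chip 2 gave 0.078 and 0.13. Among captured RNA the differences were 0.10 ± 0.16 and 0.24 ± 0.12 (adjusted p = 0.666 and 0.147).

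Cebpb encodes C/EBPβ, a transcription factor that pairs with ATF4 at many of its targets, and it was lowest in captured RNA of untreated cells. Its arrays read 10.41, 10.36, 10.47 and 10.37 in Basal-total and 10.36, 10.24, 10.23 and 10.30 in Ox-total. In Basal-ARP they read 10.03, 9.99, 9.84 and 10.09, and in Ox-ARP 10.44, 10.36, 10.33 and 10.29. All 4 Basal-ARP arrays lay under every other array, and the remaining groups overlapped between neighbours in the order Basal-total, Ox-ARP, Ox-total. Capture without peroxide lowered Cebpb by 0.41 ± 0.078 (1.33-fold, adjusted p = 0.000806), alike on chip 1 at -0.37 and chip 2 at -0.45. With peroxide the capture difference was 0.069 ± 0.078 (adjusted p = 0.553). Cebpb rose by 0.36 ± 0.078 from Basal-ARP to Ox-ARP (adjusted p = 0.00246), and its interaction of 0.48 ± 0.11 was called (adjusted p = 0.0282). The interaction lost its call in 7 of the 16 fits that left out 1 array, with adjusted p from 0.0334 to 0.0654.

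Trib3, a pseudokinase induced by ATF4 and CHOP that dampens their action, gave no call. From high to low its means were 8.48 ± 0.23 (SD, n = 4) in Basal-ARP, 8.33 ± 0.21 in Basal-total, 8.16 ± 0.17 in Ox-total and 8.11 ± 0.22 in Ox-ARP, and neighbours overlapped. The difference between the captured fractions was -0.37 ± 0.14 (adjusted p = 0.0544), lower in all 4 same-numbered comparisons, -0.41 on chip 1 and -0.32 on chip 2. It passed the threshold in the alternatives with cyclic loess, with no background correction, with the authors' processed table and with the chip as a block, where adjusted p ran from 0.0129 to 0.0485, and in 4 of the 16 fits without 1 array. In total RNA the peroxide difference was -0.17 ± 0.14 (adjusted p = 0.717).

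Phgdh, which catalyses the first step of serine synthesis, was highest in captured RNA of untreated cells, as Atf4 was. The arrays read 9.41, 9.59, 9.76 and 9.91 in Basal-total and 9.55, 9.18, 9.80 and 9.54 in Ox-total. Captured RNA gave 10.51, 10.25, 10.43 and 10.56 in Basal-ARP, but 9.62, 9.16, 9.69 and 9.47 in Ox-ARP. Basal-ARP stood wholly above the other 3 groups, and these overlapped each other. Capture raised Phgdh by 0.77 ± 0.14 without peroxide (1.70-fold, adjusted p = 0.000671), while with peroxide the difference was -0.032 ± 0.14 (adjusted p = 0.894). From Basal-ARP to Ox-ARP it fell by 0.95 ± 0.14 (1.93-fold, adjusted p = 0.000154), by 0.99 within chip 1 and 0.91 within chip 2, and lower in all 4 same-numbered comparisons. The interaction was -0.80 ± 0.20 (adjusted p = 0.0449), and 10 of the 16 fits without 1 array lost this call, with adjusted p from 0.0224 to 0.0954.

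Asns encodes asparagine synthetase, whose promoter carries the CARE core shown above, and its 3 probes did not give the same result. The probe ILMN_2636755 was lowest in Ox-ARP. It read 10.30, 10.24, 10.72 and 10.51 in Basal-total, 10.37, 10.19, 10.20 and 10.39 in Ox-total, and 10.82, 10.38, 10.66 and 10.52 in Basal-ARP. In Ox-ARP it read 9.62, 9.78, 9.99 and 9.75, under every array of the other groups. ILMN_3006123, in contrast, read 12.27, 12.35, 12.28 and 12.31 in Basal-ARP and 12.48, 12.71, 12.59 and 12.52 in Ox-ARP, where all Ox-ARP arrays were the higher. ILMN_2643513 read 13.91, 13.92, 14.02 and 13.98 in Basal-ARP and 13.91, 13.96, 14.06 and 13.94 in Ox-ARP, so those groups overlapped.

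From Basal-ARP to Ox-ARP, ILMN_2636755 fell by 0.81 ± 0.12 (1.76-fold, adjusted p = 0.000139) and ILMN_3006123 rose by 0.27 ± 0.084 (1.21-fold, adjusted p = 0.0212). The third probe, ILMN_2643513, differed by 0.012 ± 0.093 (adjusted p = 0.939), with an interval from -0.18 to 0.21. Both opposed changes were seen on each chip, at -0.91 and -0.72 for the first and at 0.29 and 0.26 for the second. The call for ILMN_3006123 was lost without Ox-ARP replicate 2 (0.23, adjusted p = 0.0706) and under median scaling (adjusted p = 0.0776). On capture with peroxide ILMN_2636755 fell by 0.50 ± 0.12 (adjusted p = 0.00498), while the other probes had 0.19 ± 0.093 and 0.082 ± 0.084 (adjusted p = 0.142 and 0.511). No Asns probe was called on capture without peroxide, with differences of 0.15, 0.15 and -0.13, nor in total RNA. The interaction of ILMN_2636755 was -0.66 ± 0.17 (adjusted p = 0.0493) and kept its call in only 3 of the 16 fits without 1 array.

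Because the probes disagreed, their differences within each array were compared, a test chosen after the values were seen. ILMN_2636755 minus ILMN_3006123 was -1.70 ± 0.22 (SD, n = 4) in Basal-ARP and -2.79 ± 0.14 in Ox-ARP, a shift of -1.09 in this within-array ratio. An exact two-sided permutation test over the arrays gave p = 0.0286, the smallest that 70 splits of 4 against 4 can give, and 0.0914 after adjustment over the 16 tests made for Asns and Ddit3. The shift from Ox-total to Ox-ARP was -0.59, and against ILMN_2643513 the shifts were -0.83 from Basal-ARP and -0.69 from Ox-total, each with the same exact p. ILMN_2643513 minus ILMN_3006123 also had that p for Ox-ARP against Basal-ARP, with a shift of -0.26. None of the 16 passed after adjustment. Even the smallest possible p passes adjustment over 16 tests only if many of the tests share it. This outcome therefore does not show that the probes behaved alike. Over the 16 arrays, which share 4 group means, ILMN_2636755 correlated with ILMN_2643513 at a Pearson r of 0.028 and with ILMN_3006123 at -0.62. For the 2 Ddit3 probes r was 0.89, and the exact p of their 4 comparisons lay between 0.257 and 0.629. The position of each probe in its transcript is not stated in the labels or files, so which part of Asns each one reads is not stated.

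**Figure D3:**
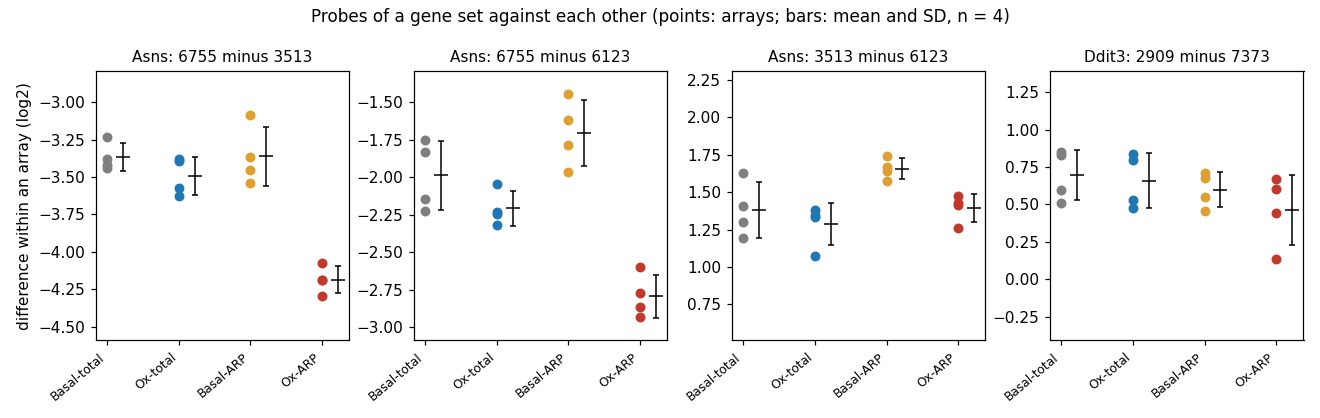
Difference in log2 intensity between 2 probes of the same gene within each array (points), by group, with the mean and SD of 4 arrays; each panel has its own vertical axis of the same span and titles give the last 4 digits of the probe IDs. In the first 2 panels the Ox-ARP arrays lie under all others, and in the Ddit3 panel the groups overlap.

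In the ER arm, the chaperone genes Hspa5 and Hyou1 were most represented in captured RNA of peroxide-treated cells. Hspa5 encodes BiP, the HSP70 chaperone of the ER lumen that also restrains the stress sensors, and its promoter held both ERSE and the UPRE core. It read 6.92, 6.31, 7.13 and 7.27 in Basal-total and 6.71, 6.90, 7.29 and 7.26 in Ox-total. Captured RNA gave 6.89, 7.04, 7.29 and 7.18 in Basal-ARP and 7.59, 7.57, 7.63 and 8.27 in Ox-ARP. Every Ox-ARP array lay above every other array, and the remaining groups overlapped. The highest value was that of Ox-ARP replicate 4.

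Capture with peroxide raised Hspa5 by 0.73 ± 0.20 (1.65-fold, adjusted p = 0.0113), by 0.78 on chip 1 and 0.68 on chip 2. Against Basal-ARP it was higher by 0.67 ± 0.20 (1.59-fold, adjusted p = 0.018). Without Ox-ARP replicate 4 these differences were 0.56 (adjusted p = 0.0464) and 0.50 (adjusted p = 0.0718), so the second lost its call. It was also lost with the authors' table (adjusted p = 0.0589) and with no filter on dim probes (0.0521). Without peroxide the capture difference was 0.19 ± 0.20 (adjusted p = 0.485), and the interaction of 0.54 ± 0.28 was not called (adjusted p = 0.312). The lowest value of any detected probe was 5.42 to 5.69 on these arrays, so Hspa5 was read close to background, where the correction draws differences towards 0.

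Hyou1, a large HSP70-related chaperone of the ER that serves as exchange factor for BiP, gave the tighter values. Its arrays read 8.66, 8.55, 8.75 and 8.62 in Basal-total, 8.51, 8.78, 8.91 and 9.01 in Ox-total, and 8.58, 8.59, 8.41 and 8.85 in Basal-ARP. In Ox-ARP they read 9.28, 9.29, 9.41 and 9.44, above all others. Capture with peroxide raised Hyou1 by 0.56 ± 0.11 (1.47-fold, adjusted p = 0.00143), while without it the difference was -0.040 ± 0.11 (adjusted p = 0.809). Hyou1 rose by 0.75 ± 0.11 from Basal-ARP to Ox-ARP (1.68-fold, adjusted p = 0.000146), by 0.70 on chip 1 and 0.80 on chip 2. The interaction of 0.60 ± 0.16 fell just short of the threshold (adjusted p = 0.0526), with a positive sign in all 4 same-numbered comparisons, and passed with no background correction (0.0417) and with the chip as a block (0.0185). In total RNA the peroxide difference was 0.15 ± 0.11 (adjusted p = 0.679).

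Calr encodes calreticulin, a calcium-binding lectin chaperone of the ER, and it was less represented in captured RNA, where Hspa5 and Hyou1 were more so with peroxide. It read 10.33, 10.61, 10.27 and 10.59 in Basal-total and 10.34, 10.09, 10.27 and 10.35 in Ox-total. After capture it read 10.12, 9.84, 9.77 and 10.33 in Basal-ARP and 9.75, 9.38, 9.95 and 9.81 in Ox-ARP. The order was Basal-total, Ox-total, Basal-ARP and Ox-ARP, each overlapping its neighbour, while Ox-ARP lay under both total groups. Capture lowered Calr by 0.54 ± 0.14 with peroxide (1.45-fold, adjusted p = 0.00773), by 0.65 on chip 1 and 0.42 on chip 2. Without peroxide it was lower by 0.43 ± 0.14 (adjusted p = 0.0229), but 1 Basal-ARP array reached into the Basal-total range. The latter call was lost without Basal-total replicate 2 or 4 and without Basal-ARP replicate 2 or 3 (adjusted p from 0.064 to 0.0718), and with no filter on dim probes (0.0505). The captured fractions differed by -0.29 ± 0.14 (adjusted p = 0.118).

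Xbp1, the transcription factor whose transcript IRE1 splices, gave no call in any comparison. From high to low its means were 12.10 ± 0.25 (SD, n = 4) in Basal-ARP, 12.07 ± 0.095 in Ox-ARP, 11.94 ± 0.15 in Basal-total and 11.83 ± 0.11 in Ox-total. The ranges of all 4 groups overlapped. The capture difference was 0.16 ± 0.12 without peroxide and 0.24 ± 0.12 with it (adjusted p = 0.306 and 0.144). Between captured fractions it was -0.028 ± 0.12, with a 95% interval from -0.27 to 0.22.

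The other genes of these pathways were read by the brightest passing probe of each gene, from 5 lists chosen with earlier results of these data known. Upstream of ATF4, 13 of 17 genes of the eIF2 kinases, eIF2, its exchange factor eIF2B and its phosphatase were tested. Of these, 1 was higher and 1 lower on capture without peroxide, 4 higher and 1 lower on capture with it, and 3 higher and 0 lower in Ox-ARP than in Basal-ARP. These calls are 15.4%, 38.5% and 23.1% of the 13, where 31.8%, 27% and 29.2% of all probes were called. The eIF2B subunit gene Eif2b4 was lowered on capture without peroxide by 0.38 ± 0.080 (adjusted p = 0.00175) and rose by 0.45 ± 0.080 between captured fractions (adjusted p = 0.000681). Eif2b5, the catalytic subunit of eIF2B, rose by 0.42 ± 0.12 between captured fractions (adjusted p = 0.0169), and its other probes had 0.39 and 0.26, of which the first passed. Eif2b2 was higher on capture without peroxide by 0.48 ± 0.14 (adjusted p = 0.0133), while Eif2s2 and Eif2s3x, subunits of eIF2, had 0.18 ± 0.090 and 0.28 ± 0.12 there and were not called. For Eif2s2 the dimmer probe had 0.31 ± 0.090 and did pass (adjusted p = 0.014).

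Of 32 other ATF4 pathway genes, 24 were tested, of which 3 were higher and 2 lower on capture without peroxide, 5 and 3 on capture with it, and 2 and 4 in Ox-ARP against Basal-ARP. Set against the same shares of all probes (31.8%, 27% and 29.2%), 20.8%, 33.3% and 25% of the 24 were called. Slc1a5, a carrier of neutral amino acids including glutamine, had the largest difference of the 24 on capture without peroxide. It was not detected on any total array. Its mean was 5.05 in Basal-total and 6.99 in Basal-ARP, at least 2.75-fold higher. Here the brighter group is set against the lowest detected value of each dimmer array. Slc1a5 met the detection filter only in Basal-ARP, the group where it was high. No p-value is therefore given for it, though its calls are counted above. From Basal-ARP to Ox-ARP, where it was detected on 3 of 4 arrays, Slc1a5 fell by 1.20 ± 0.16. Its second probe, detected on 7 arrays and on none of total RNA, fell by 1.01 ± 0.13. The amino acid carrier Slc38a2 fell by 1.21 ± 0.11 there (adjusted p = 3.89e-06), but its second probe differed by 0.065 ± 0.21 (adjusted p = 0.844). Slc1a5 and Slc38a2 were the 2 genes of the list with a called interaction. For Slc1a5 that term sets captured RNA against total arrays that did not detect the gene, so neither size nor p-value is given. For Slc38a2 it was -0.86 ± 0.16 (adjusted p = 0.011), and its second probe had 0.17 ± 0.30 (adjusted p = 0.821).

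Other genes of that list ran differently. Aldh18a1, an enzyme of proline synthesis, was lowered on capture without peroxide by 0.75 ± 0.13 and rose by 0.52 ± 0.13 between captured fractions (adjusted p = 0.000317 and 0.00549). Nupr1, a small stress-induced chromatin protein, was lower on capture in both conditions, by 0.47 ± 0.11 and 0.45 ± 0.11 (adjusted p = 0.00305 and 0.00504). Mthfd2, a mitochondrial folate enzyme, was higher in both, by 0.35 ± 0.098 and 0.39 ± 0.098 (adjusted p = 0.0125 and 0.0068). None of the 24 was called in total RNA, where their median difference was -0.065.

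For the sensors and proteases of the unfolded protein response, 6 of 8 genes were tested, with 2 higher and 2 lower on capture without peroxide and the same counts in Ox-ARP against Basal-ARP. On capture with peroxide 1 was higher and 2 were lower. With 6 genes these are 66.7% without peroxide, 50% with it and 66.7% between captured fractions, against 31.8%, 27% and 29.2% of all probes. Mbtps1, the protease that makes the first cut in ATF6, rose on capture by 0.36 ± 0.10 without and 0.61 ± 0.10 with peroxide (adjusted p = 0.0118 and 0.000314). On capture its other 2 probes passed only with peroxide, at 0.51 and 0.44. Mbtps2, which makes the following cut, was called higher on capture without peroxide. It met the detection filter only in Basal-ARP, the group where it was high, so no p-value is given. It was detected on 1 of 4 Basal-total arrays and on all 4 of Basal-ARP, with means of 5.40 and 5.79, so the former mean lies at background. In Ox-ARP Mbtps2 was not detected, with a mean of 5.10, so the captured signal was lower with peroxide by at least 1.21-fold. The ATF6-related factor Creb3 was lowered on capture without peroxide by 0.72 ± 0.15 and rose by 0.54 ± 0.15 between captured fractions (adjusted p = 0.00133 and 0.0107). Creb3l2 fell by 0.39 ± 0.10 between captured fractions (adjusted p = 0.00805), where its other probe had 0.026 ± 0.14. Traf2, an adaptor of IRE1, was detected on all 4 Basal-total arrays and no Basal-ARP array, with means of 5.90 and 5.05. It was at least 1.38-fold lower in the latter. It met the detection filter in Basal-total, the higher group of this comparison, so no p-value is given.

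Of 26 other ER chaperones and foldases, 19 were tested. On capture 5 were higher and 3 lower without peroxide and 6 and 2 with it, and in Ox-ARP against Basal-ARP 5 were higher and 2 lower. These are 42.1%, 42.1% and 36.8% of the 19, beside 31.8%, 27% and 29.2% of all probes. The median differences were 0.12, 0.12 and 0.17, against 0.025, 0.028 and 0.019 over all probes. The disulfide isomerase genes P4hb and Pdia3 were higher on capture in both conditions. P4hb had 0.40 ± 0.089 without and 0.66 ± 0.089 with peroxide (adjusted p = 0.00299 and 4.82e-05), and Pdia3 had 0.42 ± 0.090 and 0.47 ± 0.090 (adjusted p = 0.00223 and 0.00101). Ero1lb, an oxidase that recharges disulfide isomerases, had 0.60 ± 0.089 and 0.63 ± 0.089 (adjusted p = 9.34e-05 and 6.8e-05). The Ero1lb means of 6.06 in Basal-total and 6.09 in Ox-total lay close to background, though all arrays of both groups detected it. Cnpy2 was lower on capture, by 0.64 ± 0.10 and 0.41 ± 0.10 (adjusted p = 0.000205 and 0.00682), and Dnajc10, an ER reductase with a J domain, fell by 0.44 ± 0.10 between captured fractions (adjusted p = 0.00446).

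Of 18 genes of ER-associated degradation, the route by which misfolded proteins leave the ER for the proteasome, 13 were tested. Without peroxide 2 were higher and 2 lower on capture, with it 2 and 0, and in Ox-ARP against Basal-ARP 2 and 2. The shares called were 30.8%, 15.4% and 30.8% of the 13, and over all probes 31.8%, 27% and 29.2%. Vcp, the ATPase that draws substrates out of the membrane, was higher on capture in both conditions, by 0.44 ± 0.089 and 0.51 ± 0.089 (adjusted p = 0.00128 and 0.00047). Ube2j1, a membrane-bound ubiquitin-conjugating enzyme, was higher by 0.81 ± 0.15 and 0.71 ± 0.15 (adjusted p = 0.000591 and 0.00197). The Ube2j1 means of 6.02 in Basal-total and 6.01 in Ox-total lay close to background, though all arrays of both groups detected it. Derl2 and Vimp, both membrane proteins of the retrotranslocation machinery, were lower on capture without peroxide, by 0.47 ± 0.12 and 0.41 ± 0.091, and rose between captured fractions by 0.35 ± 0.12 and 0.37 ± 0.091 (adjusted p = 0.0327 and 0.00674). Vimp was the list's 1 called interaction, at 0.50 ± 0.13 (adjusted p = 0.0482). The second Vimp probe had an interaction of 0.45 ± 0.22 (adjusted p = 0.289) and a capture difference without peroxide of -0.36 ± 0.16 (adjusted p = 0.089), neither called, and rose between captured fractions by 0.57 ± 0.16 (adjusted p = 0.0121). Syvn1, the ubiquitin ligase of this route, fell by 0.36 ± 0.096 between captured fractions (adjusted p = 0.01).

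**Figure D4:**
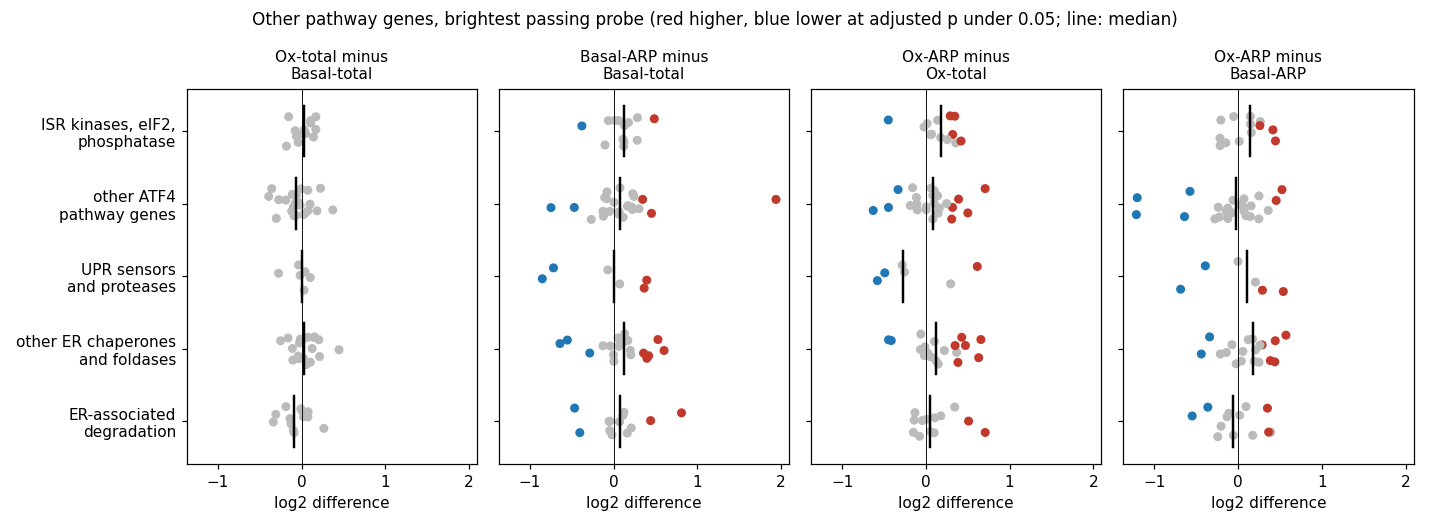
Log2 differences of the tested genes of the 5 lists (rows; points are genes by their brightest passing probe) in the 4 comparisons between groups (panels); red and blue points passed the adjusted threshold, grey ones did not, and the black line is the list's median. All points are grey in total RNA, and on capture without peroxide Slc1a5 lies apart at 1.94, a fitted value of a gene not detected on the total arrays.

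The genes whose values correlated most with those of Atf4 over the 16 arrays, among those with a symbol, were Tipin, Myl12b and Mcl1. Their Pearson r was 0.917, 0.917 and 0.912. The Tipin means of 5.99 in Basal-total and 5.82 in Ox-total lay close to background. Mcl1, an anti-apoptotic BCL2 relative, had means of 10.76 ± 0.14 (SD, n = 4) in Basal-total and 10.64 ± 0.21 in Ox-total, against 11.50 ± 0.14 in Basal-ARP and 11.11 ± 0.11 in Ox-ARP. Those most correlated with Hspa5 were Pkig, Erlec1 and Septin9, at 0.928, 0.920 and 0.917. Erlec1, a lectin of ER-associated degradation, was read here by a dimmer probe than the one used for its list, with means of 7.90 ± 0.19 in Basal-total and 7.99 ± 0.21 in Ox-total, against 8.23 ± 0.22 in Basal-ARP and 8.56 ± 0.18 in Ox-ARP. These are descriptions over 16 arrays that share 4 group means and were picked as the highest among all named probes.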

How the data were processed

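Per the file headers, the deposited scanner table gave a bead intensity that is not normalized and a detection p-value for each probe on each array. The submitters' processing notes name GenomeStudio 2010.2. A second table of intensity processed by the authors had a mean of 376 in every column and 28.2% of values below 0. It served as an alternative, floored at 1, and its method of background treatment is not given in the sources used here.

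The intensities were background corrected (normexp, offset 16) with negative controls inferred from the detection p-values, which step as 798 controls would, then quantile normalized and taken to log2 in limma 3.58.1 (R 4.3.3). Of 25697 probes, 10794 were kept for having, in 1 or more groups, 4 arrays with detection p under 0.01. lmFit estimated the 4 group means from the 16 arrays together, and eBayes tested the contrasts with 12 residual and 5.44 prior degrees of freedom. This main fit had no term for chip or replicate number, which entered only as alternatives. The fit and its contrasts were tested on simulated data, made from the normalized, filtered values with independent noise. Background correction, normalization and the detection filter were not part of that test. Symbols came from the platform annotation, in which 23978 probes had 1 symbol and 1719 none, and 23962 matched RefSeq (GRCm38.p6). The number of arrays limits the precision.

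The members, lists, tests and naming rule were chosen with earlier results of these data known. The rule named every member probe, from each list the 4 genes of smallest p in Basal-ARP against Basal-total and the 2 in Ox-ARP against Basal-ARP, and the 3 genes most like Atf4 and Hspa5. The test of probes within Asns and Ddit3 and the values of second probes were added after values were seen. Chips were read from the array labels. Replicate numbers were assumed to pair the captured with the total arrays, but the main fit did not use this pairing. Same-numbered arrays deviated from their group means together in all 4 pairs. The correlations were 0.28 to 0.639 without peroxide and 0.16 to 0.7 with it. The peroxide comparisons each had a pair at or under 0.1. Same-numbered arrays of Ox-total and Basal-ARP, which differ in condition, also deviated together, at 0.52, 0.451, 0.354 and 0.169. Same-numbered arrays share a chip as well, so these correlations cannot show that arrays were paired. Alternatives covered background, normalization, filter, probe choice, arrays fitted, chip, replicate block and each array left out.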

Additional observations from a re-analysis of the deposited data

Results flagged for a closer look

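In 3 of the 52 groups of 4 arrays formed by the 13 probes, 1 array stood far from the other 3 by Dixon's test at its 95% critical value, where chance flags about 1 in 20 groups. For the Ddit3 probe ILMN_2652909, Basal-total replicate 3 was low at 10.08. For Trib3, Ox-total replicate 1 was high at 8.41. For Hspa5, Ox-ARP replicate 4 was high at 8.27, and without it the difference of Ox-ARP from Basal-ARP was 0.50 (adjusted p = 0.0718).

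For 3 probes the capture difference itself differed between peroxide-treated and untreated cells by the interaction term of the limma fit. The interaction was -0.66 for the Asns probe ILMN_2636755 (adjusted p = 0.0493), -0.80 for Phgdh (adjusted p = 0.0449) and 0.48 for Cebpb (adjusted p = 0.0282), each with the same sign in all 4 same-numbered comparisons. Adjusted p ran from 0.0263 to 0.0999 for Asns, from 0.0224 to 0.0954 for Phgdh and from 0.0334 to 0.0654 for Cebpb when 1 array at a time was left out. In the other alternatives the call was lost in 7 of 10 for Asns, 7 of 11 for Phgdh and 4 of 11 for Cebpb.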

How the results depend on the processing

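Over all alternatives, 1792 values of the 13 probes were recomputed: 1618 kept their direction and side of the threshold, 55 called in neither fit changed sign, 98 lost a call and 21 gained one. No called value changed sign. Without 1 array in turn, all probes called ran from 13 to 49 in Ox-total against Basal-total, 2809 to 3509 in Basal-ARP against Basal-total, 2328 to 3217 in Ox-ARP against Ox-total, 2295 to 3293 in Ox-ARP against Basal-ARP and 107 to 323 in the interaction. Member probes called ran from 0 to 0, 4 to 6, 6 to 7, 6 to 8 and 0 to 3 in the same order. No member interaction was called without Basal-total replicate 1, Ox-total replicate 3, or Ox-ARP replicate 2 or 4, and their interaction counts over all probes were 125, 107, 128 and 117. Leaving out Ox-total replicate 1 gave 153 and Basal-ARP replicate 4 gave 179. In total RNA 14 probes were called without Basal-total replicate 2, 49 without Basal-ARP replicate 3, and 17, 13 and 15 without Ox-total replicates 2, 3 and 4. Exactly 1 member interaction was called without Basal-total replicate 2, Ox-total replicate 1 or 2, Basal-ARP replicate 1 or 3, or Ox-ARP replicate 1.

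With the 8 arrays of chip 1 alone, all-probe counts were 1, 1737, 1566, 1163 and 3 over the 5 comparisons in that order, and member counts were 0, 2, 7, 4 and 0. With chip 2 alone they were 0, 1273, 711, 1102 and 0, and member counts 0, 1, 0, 4 and 0; these fits have 2 arrays per group. Taking the chip as a block gave 75 calls in total RNA and 828 interactions. Without normalization between arrays, the counts were 0, 1036, 715, 1315 and 1, with 0, 1, 1, 1 and 0 members. The authors' processed table gave 49 calls in total RNA and 1 member interaction. Median scaling gave 134 interactions and 1 among members, the brightest probe per gene 126 and 1, and cyclic loess and no filter 1 among members each; the cause was not tested.

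Median scaling moved the share of higher calls from 50.3% to 65.1% in Ox-ARP against Ox-total and from 47.4% to 64.6% in Ox-ARP against Basal-ARP. The authors' table gave 65.4% in the former and 57.6% in place of 30.9% for the interaction, the brightest probe per gene 44.4% and the chip block 46.5% there. Without normalization the shares were 11.9%, 32% and 80.8% in the 3 comparisons with captured RNA, in place of 52.3%, 50.3% and 47.4%. The median of all probes moved by over 0.1 only without normalization, by -0.12 in Basal-ARP against Basal-total, 0.16 in Ox-ARP against Basal-ARP and 0.13 in the interaction.

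The fit with a replicate block gave 97 calls in total RNA and 1038 interactions, and 0, 6, 7, 8 and 4 member calls. In the 2 capture comparisons, where the numbers were assumed to pair the arrays, the block added the call of Atf4 with peroxide. It changed no other member call there. In the peroxide comparisons, same-numbered arrays deviated together by -0.265 to 0.461 in total RNA and 0.0204 to 0.604 in captured RNA. The block also added Trib3 between captured fractions (adjusted p = 0.0044) and the Hyou1 interaction (0.0181). Over all groups 11 of 16 arrays were closest to their own number. Signal near background limits the values of Hspa5, Ero1lb, Ube2j1 and Tipin, and of Slc1a5, Traf2 and Mbtps2, which some groups did not detect.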
